A study of Mus musculus with 12 samples.

Results

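The 8 genes described here write, maintain or oxidise DNA methylation in mouse cells: the methyltransferases Dnmt1, Dnmt3a and Dnmt3b, the maintenance cofactor Uhrf1, the chromatin remodeller Hells, and the dioxygenases Tet1, Tet2 and Tet3. They were 8 of the 19938 genes that had a probe set with a single gene symbol on the Affymetrix Mouse Gene 1.0 ST array, which reads each gene with a set of short probes spread over its transcript. All 8 had such a probe set. Tet1 had 3 and Tet3 had 2, and for these the probe set with the highest mean over the 12 arrays was taken. The RNA came from mouse embryonic fibroblasts, the mesenchymal cells that grow out of dissociated embryos. There were 4 groups of 3 arrays, with 1 array per sample: Rb1 S/S cells, the Rb1 +/+ cells matched to them (S-matched wild type), Rb1 L/L cells, and the Rb1 +/+ cells matched to those (L-matched wild type). Rb1 encodes the retinoblastoma protein, which binds E2F transcription factors and holds back cell cycle genes in resting cells. What the S and L alleles change is not given in the labels used here. Cells of all 4 groups were expanded in 10% serum to passage 4, then arrested by 72 h in 0.1% serum. The labels do not state which embryos or dishes the 3 samples of a group are, and p-values here reflect the spread between those samples, which may be technical. Embryo age is not given there either. A bulk RNA sample does not tell fewer cells of a type from less RNA per cell.

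Cytosine methylation at CpG sites is copied after DNA replication by Dnmt1, which Uhrf1 brings to newly made DNA by reading hemimethylated CpGs, and Hells opens nucleosomal DNA for this machinery. Dnmt3a and Dnmt3b methylate CpGs that carried no mark before, mostly during development. The Tet enzymes oxidise 5-methylcytosine, which starts its removal. Because maintenance is tied to replication, Dnmt1, Uhrf1 and Hells are commonly described as genes of dividing cells, and E2F factors are known regulators of many such genes. The arrays measured transcript levels in arrested cells and did not measure methylation itself.

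E2F-type letters lay upstream of a RefSeq start of the 3 maintenance genes and in no window of the other 5 genes. The windows searched ran from 250 bases before to 50 bases after each start in the GRCm38.p6 mouse assembly. The letters were TTTCCCGC, TTTCGCGC, TTTGCCGC and TTTGGCGC, on both strands. The stretches of 30 bases around the upstream matches are shown because they are what separates Dnmt1, Uhrf1 and Hells from Dnmt3a, Dnmt3b and the Tet genes in this search, and capitals mark the matched letters.
Dnmt1, chr9:20952824-20952853, minus strand: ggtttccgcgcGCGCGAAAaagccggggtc
Uhrf1, chr17:56304117-56304146, plus strand: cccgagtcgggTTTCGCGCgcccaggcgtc
Hells, chr19:38930917-38930946, plus strand: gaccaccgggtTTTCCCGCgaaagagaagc
The Dnmt1 match reads TTTCGCGC on the opposite strand, at bases -219 to -212 relative to the third of its 3 listed starts, and that window also held TTTGGCGC at bases 34 to 41 after the start. The windows of the other Dnmt1 starts, which lie further 5′, held no match. The Uhrf1 match lay at bases -185 to -178 relative to the second of its 2 starts, and the Hells match at bases -62 to -55 relative to its single start. The whole stretch of 250 bases before the Hells start, the only one of the 3 genes with a single listed start, is given to show the setting of its match.
Hells, chr19:38930740-38930989, plus strand: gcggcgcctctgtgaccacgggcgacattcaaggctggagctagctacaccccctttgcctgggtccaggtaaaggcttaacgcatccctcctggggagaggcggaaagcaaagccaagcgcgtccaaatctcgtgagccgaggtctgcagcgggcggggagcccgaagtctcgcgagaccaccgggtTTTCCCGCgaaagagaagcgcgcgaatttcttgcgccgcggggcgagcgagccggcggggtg
Of 27025 mouse genes in the same promoter table, 2.60% held the E2F letters in at least 1 window, against 15 of the 43 S-phase genes found there (34.9%). The 3 windows with a match held 33 CpG for Dnmt1, 33 for Uhrf1 and 34 for Hells, against a median of 7 over all windows. Some windows without a match were richer, with 57 for Tet2 and 46 and 47 for 2 of the Dnmt3a windows. The others were poorer, with 18 for the third Dnmt3a window, 30 for Dnmt3b, 22 for Tet3 and 17 for Tet1. The unmatched windows of Dnmt1 held 2 and 12, and that of Uhrf1 held 12. CCAAT letters, present in 41.1% of genes, stood in windows of Dnmt1, Uhrf1 and Tet3, and not in that of Hells. TTTGAA letters (the CHR element of mitotic promoters), present in 20.2% of genes, stood in windows of Dnmt1 and Dnmt3b. A match is a description of letters and not evidence of binding.

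Levels are given as log2 RMA values, for which a step of 1 is a doubling, and medians of the arrays ran from 6.85 to 7.01. Array 1 of the S-matched wild type stood apart: its interquartile range was 3.10 against 3.39 or more elsewhere, and it correlated with the other arrays at 0.962 to 0.980 against 0.982 to 0.997 among the rest. By Y-linked genes 10 arrays were from female and 2 from male cells, the latter being array 1 of the L-matched wild type and array 1 of L/L. Arrays 2 and 3 of both L groups were from female cells, so each of these groups held cells of more than 1 embryo. Y-linked probe sets in female cells read 3.82 to 5.51 (5.17 at most without array 1 of the S-matched wild type), which gives the range of these probe sets without a target. Fibroblast markers were high in every group (Vim 13.3 to 13.7, Col1a1 12.2 to 13.1). Other cell types were not clearly absent: the endothelial list ran from Kdr (5.47 to 6.45) and Pecam1 (5.69 to 6.12) to Emcn (6.64 to 9.06) and Flt1 (8.71 to 9.60), and the epithelial list from Epcam (5.30 to 5.82) to Krt8 (7.75 to 8.61). Some macrophage markers read high on all arrays, as with Lyz2 at 9.31 to 12.5. Rb1 itself read 8.34, 8.83 and 8.89 in the S-matched wild type, 9.72, 9.58 and 9.35 in S/S, 9.23, 9.05 and 8.61 in the L-matched wild type, and 9.39, 9.36 and 9.23 in L/L. Its difference was 0.87 in S/S (limma adjusted p = 0.0976) and 0.36 in L/L (adjusted p = 1).

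None of the 8 genes passed the test in either mutant (limma, two-sided, Benjamini-Hochberg adjusted p under 0.05 over 19938 genes). The largest difference was Dnmt1 in L/L cells, 0.68 higher on the log2 scale or 1.60-fold, followed by Uhrf1 in the same cells, 0.53 higher or 1.45-fold. In S/S cells both lay on the other side of their wild type, by -0.21 and -0.39, while Tet1, Tet2 and Tet3 lay 0.30 to 0.35 above it. Few genes passed at all: 24 of 19938 in S/S (0.120%) and 8 in L/L (0.0401%). At an unadjusted p under 0.05 the count was 1 of 8 in S/S (Tet2) against 10.1% of all genes, and 2 of 8 in L/L (Dnmt1 and Uhrf1) against 3.27%. The 3 arrays of each group did not overlap for 1 of 8 genes in S/S (Dnmt1) against 11.8% of all genes, and for 3 of 8 in L/L (Dnmt1, Uhrf1 and Tet3) against 14.8%. The median difference of the 8 genes was 0.11 in S/S and 0.10 in L/L, against -0.04 and 0.02 over all genes. Without array 1 of the S-matched wild type the S/S median of the 8 genes was 0.00 (-0.01 over all genes).

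**Figure D1:**
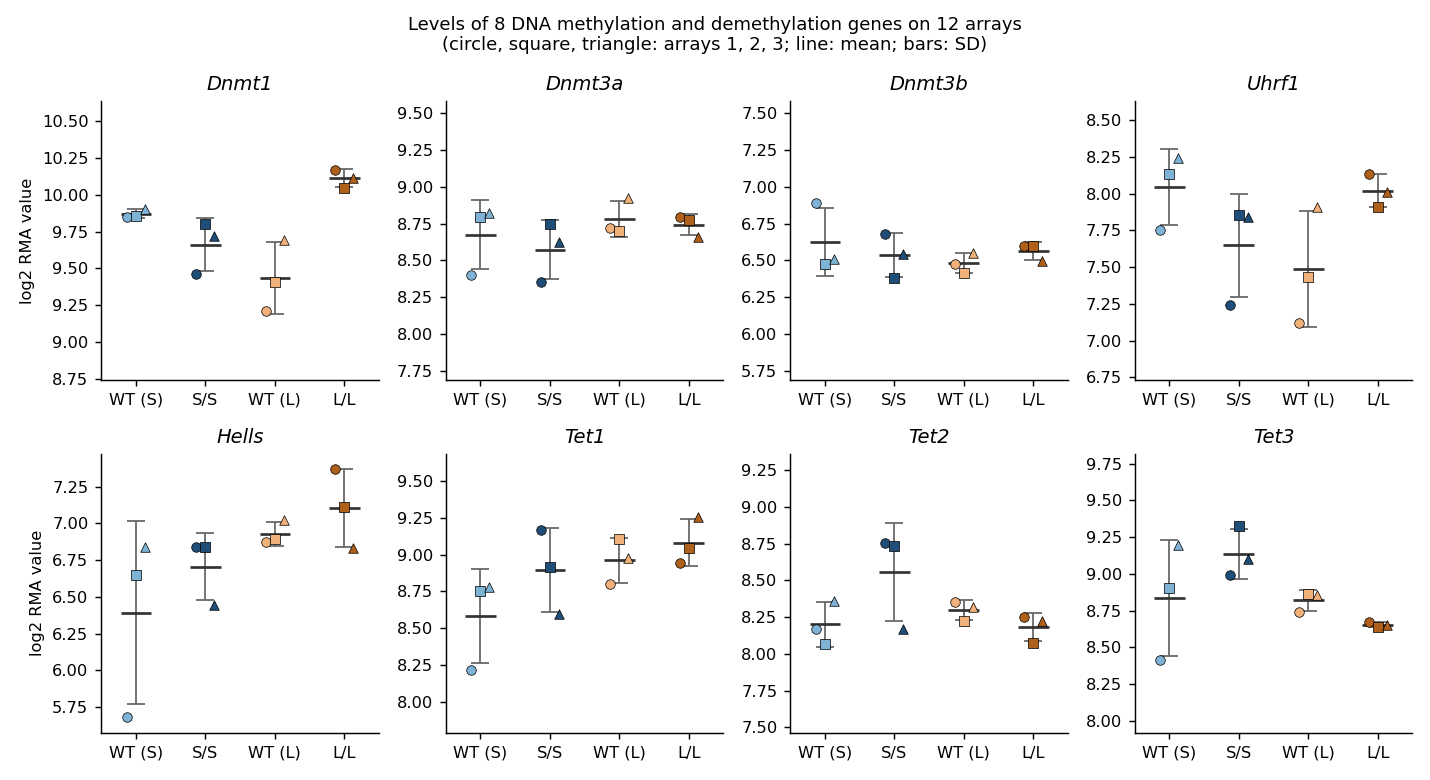
Level of each of the 8 genes (vertical axis, log2 RMA value, each panel spanning the same number of log2 units) on the 3 arrays of each group, with points for arrays, a line for the mean and bars for the SD. Dnmt1 in L/L sat at 10.05 to 10.17, above every other array, and array 1 of the S-matched wild type was the lowest of all 12 for Hells, Tet1 and Tet3.

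Dnmt1, the maintenance methyltransferase, read 9.85, 9.86 and 9.91 on the wild-type arrays of the S set and 9.46, 9.80 and 9.72 on the S/S arrays. The groups did not overlap, but S/S array 1 lay well below the other two. The difference was -0.21 ± 0.13 (SE, n = 3 against 3; limma adjusted p = 0.562), and without S/S array 1 it was -0.11. In the L set the wild type read 9.21, 9.40 and 9.70, and L/L read 10.17, 10.05 and 10.12. Every L/L array lay above every other array of the series, and the wild-type arrays were the more spread (SD 0.25 against 0.06). The difference was 0.68 ± 0.13 (95% interval 0.40 to 0.95, adjusted p = 0.155), the 18th smallest p of all genes in that comparison. It did not pass as fitted. With array weights, which give less weight to arrays far from their group, the adjusted p was 0.00122, and without both arrays numbered 1 of the S set it was 0.0385. Over all alternatives the adjusted p ran from 0.00122 to 1. Within female cells, without both male arrays, the difference was 0.53 (adjusted p = 1). Fitted as the difference between mutant effects, S/S minus L/L, Dnmt1 gave -0.89 ± 0.18 (95% interval -1.28 to -0.49, adjusted p = 0.255).

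Uhrf1, which recruits Dnmt1 to hemimethylated DNA, read 7.75, 8.14 and 8.24 in the S-matched wild type and 7.24, 7.86 and 7.84 in S/S. Array 1 was the lowest of both groups and the groups overlapped. The difference was -0.39 ± 0.21 (adjusted p = 0.528), and -0.54 without array 1 of the wild type and -0.19 without array 1 of S/S. The L-matched wild type read 7.12, 7.43 and 7.91, and L/L read 8.13, 7.91 and 8.01. The highest wild-type array lay just under the lowest L/L array, so the groups touched without overlapping. The difference was 0.53 ± 0.21 (95% interval 0.09 to 0.98, adjusted p = 1). It moved to 0.29 without both male arrays, to 0.35 without array 1 of the wild type and to 0.74 without array 3 of the wild type, and with array weights it was 0.56 (adjusted p = 0.0424). The difference between mutant effects was -0.93 ± 0.29 (95% interval -1.56 to -0.30, adjusted p = 0.619).

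Hells, a chromatin remodeller of the SNF2 family required for normal methylation of repeats, read 5.68, 6.65 and 6.84 in the S-matched wild type and 6.84, 6.84 and 6.44 in S/S. Array 1 of that wild type was the lowest of the series by a wide margin. The difference of 0.32 ± 0.24 (adjusted p = 0.630) rested on it: without that array the value was -0.04. In the L set the wild type read 6.87, 6.89 and 7.02, and L/L read 7.37, 7.11 and 6.83. The L/L arrays lay on both sides of the wild type, and the difference was 0.18 ± 0.24 (adjusted p = 1). Of the 3 maintenance genes, Hells was the one whose mutant values overlapped those of the wild type in both sets.

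Dnmt3a, the de novo methyltransferase of somatic cells, read 8.40, 8.80 and 8.82 in the S-matched wild type and 8.35, 8.75 and 8.62 in S/S. Array 1 was low in both groups. The L-matched wild type read 8.72, 8.70 and 8.92, and L/L read 8.80, 8.77 and 8.66, with full overlap. The differences were -0.10 ± 0.14 in S/S (95% interval -0.39 to 0.19) and -0.04 ± 0.14 in L/L (95% interval -0.33 to 0.26), both within the spread of the arrays. Without array 1 of the S-matched wild type the S/S value was -0.24. Dnmt3b, the de novo enzyme most known from early embryos and stem cells, read 6.89, 6.48 and 6.51, then 6.68, 6.38 and 6.54 in the S set. In the L set it read 6.48, 6.42 and 6.55 in the wild type and 6.60, 6.60 and 6.49 in L/L. Its 12 values ran from 6.38 to 6.89, and the groups overlapped in both sets. The differences were -0.09 ± 0.12 in S/S (95% interval -0.36 to 0.18; 0.04 without array 1 of the wild type) and 0.08 ± 0.12 in L/L (95% interval -0.18 to 0.35). Markers of the early embryonic cells where Dnmt3b and Tet1 are known to be high also read at different heights: Zfp42 4.35 to 4.82, Pou5f1 5.49 to 6.002, Nanog 6.57 to 7.04 and Fgf4 6.89 to 7.24. Whether the Dnmt3b reading is above the floor of its own probe set was not tested. Dnmt3l, the catalytically inactive partner of the de novo enzymes in germ cells, read 5.03 to 5.45, at the upper end of the Y-linked range.

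Tet1 read 8.22, 8.75 and 8.78 in the S-matched wild type and 9.17, 8.92 and 8.60 in S/S. It read 8.80, 9.11 and 8.98 in the L-matched wild type and 8.94, 9.04 and 9.26 in L/L. The groups overlapped in both sets, and the differences were 0.31 ± 0.17 (adjusted p = 0.540) and 0.12 ± 0.17 (adjusted p = 1). The other probe sets of Tet1 gave 0.28 and 0.21 in S/S and 0.10 and 0.08 in L/L, so all 3 lay on the same side. The S/S value of the probe set used was 0.13 without array 1 of the S-matched wild type and -0.01 without both arrays numbered 1 of the S set.

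Tet2, the Tet enzyme best known from blood cells, read 8.17, 8.07 and 8.36 in the S-matched wild type and 8.76, 8.73 and 8.17 in S/S. S/S arrays 1 and 2 were the highest of the series, and S/S array 3 lay among the wild-type arrays. The difference was 0.35 ± 0.15 (95% interval 0.04 to 0.67, adjusted p = 0.453), and 0.55 without S/S array 3. The L set read 8.35, 8.23 and 8.32 in the wild type and 8.25, 8.08 and 8.23 in L/L, a difference of -0.12 ± 0.15 (adjusted p = 1). Tet3 read 8.41, 8.90 and 9.19 in the S-matched wild type and 8.99, 9.32 and 9.10 in S/S. The S/S value of 0.30 ± 0.16 (adjusted p = 0.528) came down to 0.09 without array 1 of the wild type, and the other probe set of Tet3 gave 0.06. In the L set Tet3 read 8.74, 8.87 and 8.85 in the wild type and 8.67, 8.64 and 8.65 in L/L. The L/L arrays were nearly level with each other and all lay under the wild type, by -0.17 ± 0.16 (adjusted p = 1), while the other probe set gave -0.13. The differences between mutant effects were 0.47 ± 0.21 for Tet2 (adjusted p = 0.764) and 0.47 ± 0.23 for Tet3 (adjusted p = 0.779), and without array 1 of the S-matched wild type they were 0.45 and 0.26.

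Macrophage markers, like the Tet genes, read higher in S/S than in the wild type. All 12 genes of the macrophage list were higher in S/S, with a median difference of 0.71 and 0 passing the test. At an unadjusted p under 0.05 in limma there was 1 of 12, Itgam, against 10.1% of all genes. With both male arrays left out this count was 8 of 12, against 1596 of 19938 genes. With array 1 of the S-matched wild type left out it was 1, against 2221. Arrays of S/S and its wild type did not overlap for 11 of 12 genes, against 11.8% of all genes. Their mean level was 7.94 to 8.21 on the wild-type arrays and 8.74 to 8.90 on the S/S arrays, with no overlap. In the L set it ran from 7.46 to 9.52 in the wild type and from 7.10 to 8.76 in L/L. Every marker of the list read above the Y-linked range on every array, the lowest being Itgam at 5.80. That range comes from few probe sets. Nanog and Fgf4, markers of early embryonic cells, also read above it, at 6.57 to 7.04 and 6.89 to 7.24. A reading above it therefore does not show that each macrophage marker was expressed. The endothelial list had a median difference of -0.07, with 3 of 8 genes on the positive side led by Emcn (1.62) and Flt1 (0.72), and its mean level was 6.70 to 6.77 on the wild-type arrays and 6.93 to 7.02 on the S/S arrays. S/S array 3 had the highest macrophage level of its group, 8.90, against 8.83 on array 1 and 8.74 on array 2. It had the lowest Tet2 and Tet1 of its group, while its Tet3, 9.10, lay between 8.99 on array 1 and 9.32 on array 2. The part of macrophages or endothelial cells in the Tet values was not tested.

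**Figure D2:**
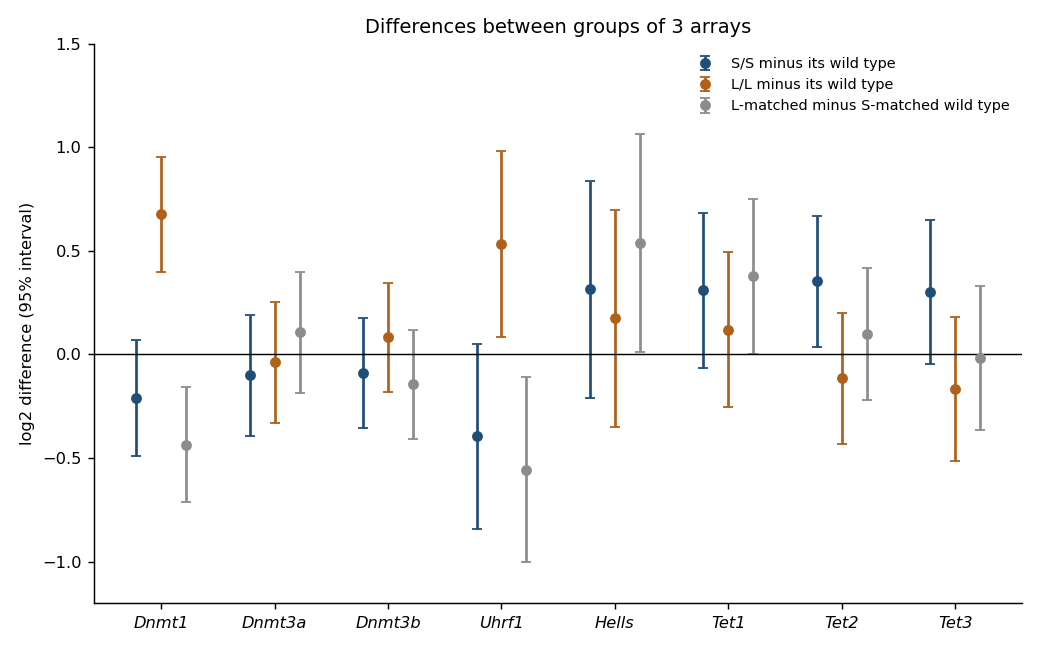
Differences of the 8 genes (vertical axis, log2; points with 95% intervals from limma, 3 arrays against 3) for each mutant minus its matched wild type, and L-matched minus S-matched wild type. The interval for Dnmt1 in L/L (0.40 to 0.95) lies farthest from 0 among the 2 mutant comparisons. Between wild types the intervals of Dnmt1 and Uhrf1 lie below 0 and those of Hells and Tet1 just above it.

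The comparison of mutant effects asked whether the 8 genes responded differently to the S and L alleles. None passed (3 of all 19938 genes did, 0.0150%), and 3 of 8 had an unadjusted p under 0.05 in limma against 6.50% of all genes: Dnmt1 and Uhrf1 on the negative side and Tet2 on the positive side. The wild types compare the same genotype between sets, and their distance holds embryo, culture and array handling together, which cannot be told apart. None of the 8 genes passed there either, in a comparison where 1736 genes did (8.71%). At an unadjusted p under 0.05 there were 4 of 8 against 23.7% of all genes, and 3 of 8 did not overlap against 27.6%. Dnmt1 was -0.44 ± 0.13 in the L-matched relative to the S-matched wild type (adjusted p = 0.0530) and Uhrf1 -0.56 ± 0.21 (adjusted p = 0.116). Hells was 0.54 ± 0.24 (adjusted p = 0.198) and Tet1 0.38 ± 0.17 (adjusted p = 0.207). Without array 1 of the S-matched wild type these were 0.18 and 0.19. This comparison shares the wild-type arrays of the L set with the L/L comparison, so the low Dnmt1 and Uhrf1 of those arrays enter both. In mean level, Dnmt1 ordered L/L (10.11 ± 0.06), S-matched wild type (9.87 ± 0.03), S/S (9.66 ± 0.18) and L-matched wild type (9.44 ± 0.25), all SD with n = 3. Uhrf1 ordered differently, with the S-matched wild type (8.04 ± 0.26) and L/L (8.02 ± 0.11) level with each other, then S/S (7.65 ± 0.35) and the L-matched wild type (7.49 ± 0.40), whose spreads overlap.

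The S-phase genes gave the scale on which these values could be read. The list held 56 genes of replication origin licensing, DNA synthesis and nucleotide supply, none of them among the 8, and 54 were analysed here. Over all 19938 genes, 11484 lay below the wild type in S/S and 11137 above it in L/L. In S/S 43 of the 54 S-phase genes were below their wild type and 11 above, with a median of -0.16. Of the 54 genes 0 passed and 10 had an unadjusted p under 0.05 in limma (9 of them lower), against 10.1% of all genes. Those with the smallest p were Orc1, the origin recognition subunit (-0.37, adjusted p = 0.350), the nucleotide enzymes Dut (-0.47, 0.390) and Tk1 (-0.49, 0.414), and the chromatin assembly subunit Chaf1b (-0.42, 0.407). In L/L 54 of 54 were above their wild type, with a median of 0.42. Of these 34 had an unadjusted p under 0.05 in limma, against 3.27% of all genes. By the test 1 gene rose, the helicase subunit Mcm6 (1.17, limma adjusted p = 0.0309). Chaf1b (0.95, adjusted p = 0.0805), Ccne1, the cyclin of S-phase entry (0.57, 0.155) and Mcm2 (0.69, 0.155) followed. Dnmt1, at 0.68, and Uhrf1, at 0.53, lay above the median of that list in L/L, and Hells, at 0.18, below it. Without both male arrays the list's median in L/L was 0.28 with 52 of 54 above, and Mcm6 no longer passed, since 0 of the list did. Between wild types the list's median was -0.35 with 15 genes lower by the test, led by Chaf1b (-1.02, adjusted p = 0.00326) and Pole (-0.97, adjusted p = 0.00411). The other 13 were Pola2, Pold2, Orc1, Lig1, Mcm5, Mcm6, Mcm2, Cdc45, Pole2, Cdc6, Asf1b, Fen1 and Mcm3. Of all genes 8.71% passed between wild types. Of 32 mitotic genes 31 were analysed here. Their median was -0.26 in S/S (26 of 31 lower; Cenpa -0.51, Cdk1 -0.39) and 0.16 in L/L (25 of 31 higher; Cdk1 0.42, Kif20a 0.28), with 0 passing in either. At an unadjusted p under 0.05 in limma there were 6 of 31 in S/S against 10.1% of all genes. In L/L there was 1 of 31 against 3.27%. With both male arrays left out, the mitotic median in L/L was -0.03, with 13 of 31 higher and 18 lower. Without array 1 of the S-matched wild type the S/S counts were 52 of 54 S-phase genes and 31 of 31 mitotic genes lower, with medians of -0.21 and -0.36.

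Which of the 8 genes followed the S-phase genes was asked array by array. The S-phase level of an array was the mean of the 54 genes after each was centred on its own mean. It was -0.09, 0.18 and 0.17 in the S-matched wild type, -0.14, -0.03 and -0.00 in S/S, -0.42, -0.27 and 0.01 in the L-matched wild type, and 0.21, 0.17 and 0.22 in L/L. The L/L arrays were close together and level with arrays 2 and 3 of the S-matched wild type, and the L-matched wild type spread the most. Dnmt1 followed this level with r = 0.931 over 12 arrays (rho = 0.902, permutation p of r 1e-04 and 0.00048 adjusted over the 8 genes). Uhrf1 followed it with r = 0.919 (rho = 0.888, permutation p 0.00012, adjusted 0.00048). Without the arrays farthest from the median level, arrays 1 and 2 of the L-matched wild type, r was 0.832 for Dnmt1 and 0.835 for Uhrf1. Within the L set of 6 arrays r was 0.987 for Dnmt1 and 0.974 for Uhrf1 (exact permutation test, adjusted p = 0.0333 for both), and within the S set 0.690 (exact permutation test, adjusted p = 0.193) and 0.909 (adjusted p = 0.0667, exact permutation test). After group means were taken out of both measures, r was 0.797 for Dnmt1 and 0.910 for Uhrf1, so arrays of 1 group also varied together. The sets differ in level, and the permutation over 12 arrays took no account of group or set, so such differences enter its p. The values within sets are free of the difference between sets but still hold that between mutant and wild type. The r without group means was given no test.

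The other 6 genes did not pass this test, with r between -0.329 (Tet2) and 0.350 (Dnmt3a) over 12 arrays and adjusted permutation p of 0.603 or more. Hells, although its promoter window held E2F letters, had r = 0.216 (adjusted permutation p = 0.782), with 0.313 in the S set and 0.523 in the L set. On arrays 1 and 2 of the L-matched wild type, where the S-phase level was lowest, it stood at 6.87 and 6.89. Dnmt3a had r = 0.873 within the S set (exact permutation test, adjusted p = 0.0667) and 0.179 within the L set. Dnmt3b had -0.545 and 0.718, and Tet3 0.275 and -0.601, so the sign differed between sets. Tet2 was on the negative side in both sets, at -0.522 and -0.543. Tet1 had r = 0.120 over 12 arrays. After group means were taken out, r was 0.758 for Dnmt3a, 0.610 for Tet3, 0.491 for Hells and 0.338 for Tet1. It was -0.425 for Dnmt3b and -0.117 for Tet2. Without arrays 1 and 2 of the L-matched wild type, r was 0.661 for Dnmt3a, 0.510 for Hells and 0.312 for Tet1. It was then -0.179 for Tet3, -0.439 for Dnmt3b and -0.581 for Tet2. Within groups Dnmt3a thus came near Dnmt1. For scale, the 54 S-phase genes had r of 0.195 to 0.937 with the level made from the rest of the list, with a median of 0.721. Among all 19938 genes Dnmt1 held rank 2 and Uhrf1 rank 7 by r with the S-phase level, in a ranking that includes the genes that make up the level, and Hells held rank 4766. With mitotic genes in place of the S-phase list, r was 0.505 for Dnmt1 (adjusted permutation p = 0.325) and 0.777 for Uhrf1, which alone passed there.

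**Figure D3:**
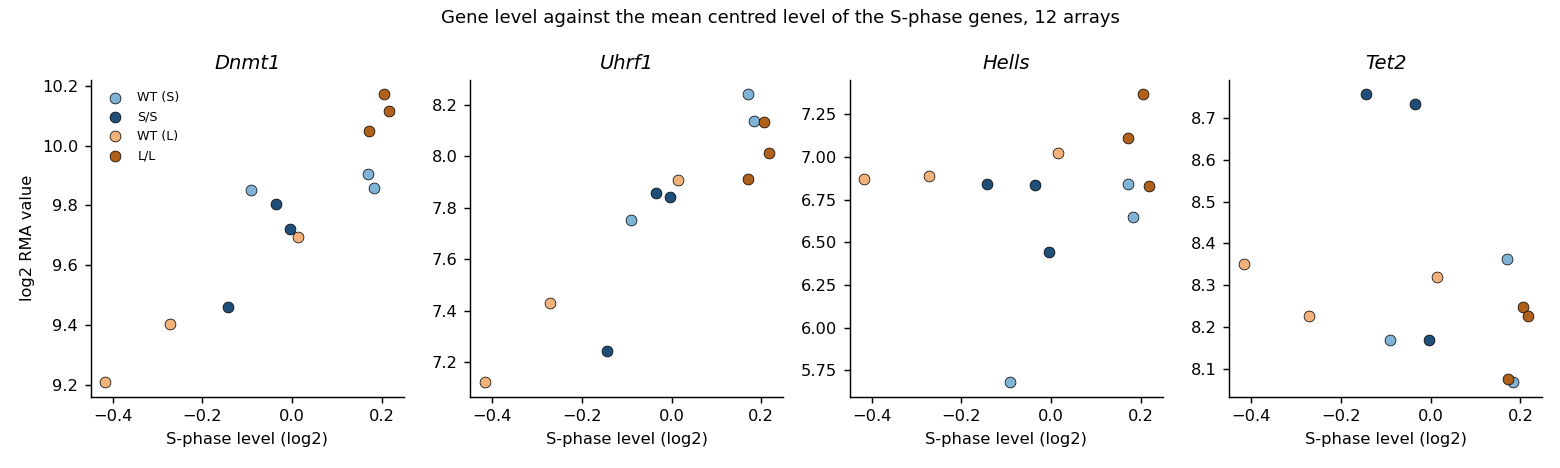
Level of Dnmt1, Uhrf1, Hells and Tet2 (vertical axes, log2 RMA value) against the S-phase level (horizontal axis, log2, mean of 54 centred genes) on 12 arrays, coloured by group. Dnmt1 (r = 0.931) and Uhrf1 (r = 0.919) rise along the axis through all 4 groups, whereas Hells (r = 0.216) and Tet2 (r = -0.329) do not.

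**Figure D4:**
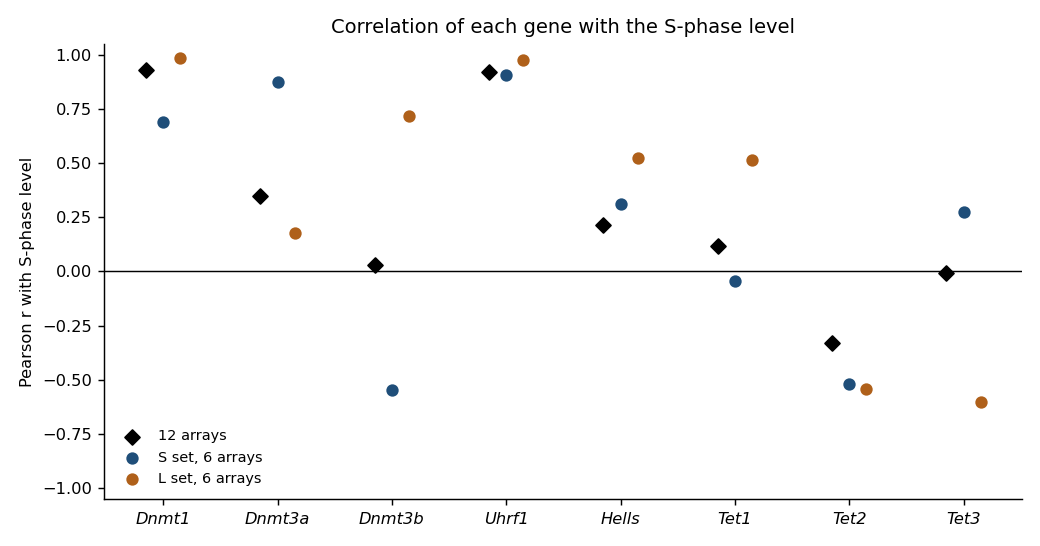
Pearson r of each of the 8 genes with the S-phase level (vertical axis, from -1 to 1), over 12 arrays and within each set of 6 arrays. Dnmt1 and Uhrf1 stay at 0.690 or more in both sets, and Dnmt3a, Dnmt3b and Tet3 differ widely between sets.

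The genes most like each of the 8 over the 12 arrays were taken from 14750 genes with a mean level of at least 6. For Dnmt1 they were Mcm2, a helicase subunit (r = 0.964), Nrm, which encodes a nuclear membrane protein (0.937), and Mcm6 (0.914). For Uhrf1 they were Dna2, a replication nuclease and helicase (0.968), the Mediator subunit Med18 (0.956) and the spindle checkpoint kinase Bub1b (0.929). For Hells they were Slc35a3 (0.979), Iqcb1 (0.975) and Dbf4, the activator of the origin-firing kinase Cdc7 (0.967). S-phase genes, which made up 0.353% of the genes searched, were 13 of the 50 most alike genes for Dnmt1 and 8 of 50 for Uhrf1, and 0 of 50 for each of the other 6. For Dnmt3a the nearest were the ciliary transport gene Ift172 (0.964), the planar polarity effector Fuz (0.960) and Adamts15 (0.953), and for Dnmt3b Klf1 (0.966), H2ab1 (0.957) and Bmp7 (0.952). For Tet1 they were 0610009B22Rik (0.944), Tnfaip8 (0.937) and Ypel2 (0.933), for Tet2 Enah (0.915), Rhot1 (0.893) and Fermt2 (0.886), and for Tet3 Hivep1 (0.979), Eif4g3 (0.968) and Csnk2a2 (0.968). Tet2 had the weakest nearest neighbours of the 8 genes. These correlations describe 12 arrays, and array 1 of the S-matched wild type held the lowest of the 12 values for Hells, Tet1 and Tet3 and the highest for Dnmt3b. Between the members themselves, Dnmt1 and Uhrf1 had r = 0.873 over 12 arrays, 0.910 in the S set and 0.949 in the L set, and Dnmt1 and Hells had r = 0.108.

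Of 45 further genes that read methylation, repair its oxidation products or supply its substrates, 38 were analysed here. None passed in S/S or L/L, with medians of -0.01 and 0.05. In S/S 2 of 38 had an unadjusted p under 0.05 in limma, against 10.1% of all genes. Both were on the positive side: Ogt, the GlcNAc transferase that binds Tet proteins (0.33, adjusted p = 0.379), and the methyl-CpG reader Zbtb33 (0.50, adjusted p = 0.415). Next were the uracil glycosylase Ung (-0.29, adjusted p = 0.521) and Idh2, a mitochondrial source of the 2-oxoglutarate that Tet enzymes consume (-0.18, adjusted p = 0.533). Without array 1 of the S-matched wild type the count at an unadjusted p under 0.05 in limma was 6 of 38, against 2221 of 19938 genes. In L/L 4 of 38 had an unadjusted p under 0.05 in limma, all positive, against 3.27% of all genes. Idh2 stood at 0.58 ± 0.10 (adjusted p = 0.0805), Cdca7, the partner that recruits Hells to chromatin, at 0.68 ± 0.18 (adjusted p = 0.477), Ung at 0.46 ± 0.15 (adjusted p = 0.855) and the glycosylase Mbd4 at 0.26 ± 0.11 (adjusted p = 1). Idh2 correlated with the S-phase level at r = 0.860 over 12 arrays, 0.845 in the S set and 0.949 in the L set. Cdca7 did so at 0.767, with 0.111 in the S set and 0.984 in the L set. Hells had 0.216 over 12 arrays, 0.313 in the S set and 0.523 in the L set. Between wild types 7 of 38 passed, against 8.71% of all genes. Lower in the L set were Cxxc5 (-0.63), Cdca7 (-0.75), Mbd1 (-0.39), Zbtb4 (-0.38), Cxxc1 (-0.39) and Ogdh (-0.40), and higher was the stress gene Gadd45a (0.39), all with limma adjusted p under 0.05. Cxxc5 and Cxxc1 bind unmethylated CpGs, and Mbd1 and Zbtb4 read methylated ones.

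Germline genes kept silent by promoter methylation in somatic cells are known to come on where methylation is lost. Of 23 listed, 20 were analysed here. In S/S 18 of 20 lay below the wild type, with a median of -0.15 against -0.04 over all genes. Of the 20 genes 0 passed and 1 had an unadjusted p under 0.05 in limma, against 10.1% of all genes. Without array 1 of the S-matched wild type 11 of 20 lay below, with a median of -0.01. Lists of dim genes read high on that array: the Y-linked list had a mean level of 4.86 there against 4.40 and 4.42 on the other wild-type arrays, and the pluripotency list 6.25 against 5.99 and 6.01. These lists were also lower in S/S, in 3 of 3 and 9 of 12 genes. The smallest p belonged to Ddx4, the germ cell helicase (-0.53, adjusted p = 0.193), and Mael (-0.19, adjusted p = 0.534). Ddx4 read 4.83 to 5.78 over the 12 arrays, mostly within the range of the Y-linked probe sets in female cells. In L/L 9 were above and 11 below, with a median of -0.01, 0 passing and 0 at an unadjusted p under 0.05; Tdrd6 (0.23) and Sycp3 (-0.12) had the smallest p, both with adjusted p = 1.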

How the data were processed

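Total RNA of 12 samples was hybridised, 1 array per sample. The deposited values are log2 RMA values (robust multi-array averages: probe signals corrected for background, set to 1 distribution across arrays and combined per probe set), which the authors made with Partek per the series' design text and the submitters' processing notes. Not given in the sources used here are the Partek version, which arrays were normalized together, and the genome build. Values ran from 2.43 to 14.67, from which their log2 scale was taken. The deposited probe set values did not share 1 distribution, with array medians of 6.85 to 7.01 and interquartile ranges of 3.10 to 3.60. Of 35556 probe sets, 21789 had 1 gene symbol in the supplied annotation, 1621 several and 12146 none. The first gave 19938 genes, with the probe set of highest mean kept for the 999 genes with more than 1, and no filter on dim values. The number of arrays limits the precision.

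A linear model with 4 group means was fitted in limma 3.58.1 (R 4.3.3; 8 residual and 5.19 prior degrees of freedom), with two-sided moderated tests adjusted by Benjamini-Hochberg over all genes. Intervals are 95% and unadjusted. Correlations used 100000 permutations over 12 arrays and all 720 pairings within a set (Python 3.11.15, SciPy 1.17.1), adjusted over the 8 genes. The calculations were also tested on simulated data. Promoter windows are RefSeq's, GRCm38.p6.

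Named besides the 8 genes and Rb1 were, from the list of methylation partners and the S-phase list, genes that passed and the 4 of smallest p per mutant, the 3 genes most alike to each of the 8, and the 2 of smallest p per mutant on the mitotic and germline lists. Marker genes, Dnmt3l and Itgam were named after their values were seen. The 8 genes and the lists were chosen with earlier results of these data known. Alternatives were quantile normalization, each set alone, a mean level of at least 6, other uses of multiple probe sets, an intensity trend with robust variances, array weights, the replicate block, and leaving out arrays. Leaving out both arrays numbered 1 of the S set, and counting the lists without arrays that stand apart, were chosen after seeing the data.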

Additional observations from a re-analysis of the deposited data

How the results depend on the processing

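With 3 arrays a group, differences of the size seen for most of the 8 genes cannot be told from the spread, and 1 array of the S set weighs on many. In S/S no alternative called any of the 8 genes, and Dnmt1, Uhrf1, Tet2 and Tet3 kept their direction in all 22. The number of genes called in S/S, 24 as fitted, was 44 with each set fitted alone, 415 with array weights, 37 with the replicate block, 37 without both male arrays, 3 without both arrays numbered 1 of the S set, and 2 to 38 leaving out 1 array. In L/L, 8 as fitted, it was 5, 336, 5, 2 and 42 in the same order, and 2 to 26 leaving out 1 array. For the difference between mutant effects, 3 as fitted, it was 8 with quantile normalization, 293 with array weights, 8 without both arrays numbered 1 of the S set, and 3 to 21 leaving out 1 array. Between wild types, 1736 as fitted, it was 2627 with quantile normalization, 6520 with array weights, 304 without both male arrays, 2870 without both arrays numbered 1 of the S set, and 525 to 2078 leaving out 1 array.

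Of the 8 genes, array weights called 2 in L/L and 2 for the difference between effects (Dnmt1 and Uhrf1 each time) and 3 between wild types (these and Tet1). Of all 19938 genes, array weights called 336, 293 and 6520 in these comparisons, so between wild types a call was common. Leaving out both arrays numbered 1 of the S set called 1 in L/L (Dnmt1) and 2 between wild types (Dnmt1 and Uhrf1). Over all genes it called 42 and 2870. Between wild types quantile normalization and a mean level of at least 6 each called 1 (Dnmt1), and leaving out 1 array gave 0 to 2. With the mitotic list 1 gene followed the level in place of 2. The cause of these shifts was not tested.

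Directions turned for small values. With array weights Dnmt3b in S/S was 0.00489, Dnmt3a in L/L 0.00480 and between wild types -0.0473, and the Hells difference between effects -0.20. Without both arrays numbered 1 of the S set Hells was -0.11 and Tet1 -0.0105 in S/S, their differences between effects -0.28 and -0.13, and Dnmt3a between wild types -0.0284. Without both male arrays Tet3 between wild types was 0.0242. Leaving out 1 array, the S/S values ran from -0.16 to 0.0417 for Dnmt3b, -0.0398 to 0.54 for Hells and -0.24 to 0.0111 for Dnmt3a. Dnmt3a in L/L ran from -0.0790 to 0.0318, and the differences between effects from -0.22 to 0.37 for Hells and -0.20 to 0.0494 for Dnmt3a. Between wild types Dnmt3a ran from -0.0284 to 0.18 and Tet3 from -0.23 to 0.16. The r with the level turned for Hells (-0.0286) and Tet1 (-0.0733) with the licensing helicase genes alone, and for Tet1 with quantile normalization (-0.0243). With the mitotic list it turned for Dnmt3b (-0.105), Hells (-0.00933), Tet1 (-0.104), Tet2 (0.00585) and Tet3 (0.470).

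Same-numbered arrays of a wild type and its mutant were alike only in part. The r of their deviations was 0.388, 0.475 and -0.122 in the S set. In the L set it was 0.601, 0.0576 and 0.359. Between arrays of unlike number it ran from -0.599 to 0.587 in the S set and from -0.517 to 0.214 in the L set. Whether the arrays are paired is not given in the labels, and these values do not settle it. With the replicate block, Dnmt1 in L/L had adjusted p = 0.196 and Uhrf1 0.537 in limma, and none of the 8 genes was called in either mutant.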
